A study of Mus musculus with 5 samples.

Results

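The 7 cytotoxic effector genes, Gzma, Gzmb, Gzmk, Prf1, Nkg7, Ifng and Fasl, were followed through single cells of mouse hearts with and without loss of 1 copy of the immune checkpoint gene Ctla4. All 7 of 7 symbols were found once each among the 31053 genes of the count tables. The series comprises 5 droplet libraries of the 5-prime gene expression chemistry, made from digested hearts that had been pooled and sorted for DRAQ5-positive, DAPI-negative cells, that is, nucleated cells with an intact membrane. The control group holds 2 libraries (replicates 1 and 2) from 4 mice of the genotype Ctla4+/+Pdcd1-/-. The disease group holds 3 libraries (replicates 3, 4 and 5) from 10 mice of the genotype Ctla4+/-Pdcd1-/-, which the series describes as a model of immune checkpoint inhibitor myocarditis, an inflammation of the heart muscle. By these labels both groups are Pdcd1-/-, and the control is not a wild type. The genotype labels of single libraries write Pdcd2 or Pdcd3 in 3 of 5 cases, and the series design gives Pdcd1 for all. The age of the mice is not given in the sources used here.

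Cytotoxic lymphocytes store granzymes, which are serine proteases, together with perforin in secretory granules and release them onto a target cell, where perforin opens the membrane and granzymes cleave proteins inside. Independently of granules, the same cells display Fas ligand, which triggers death through the receptor Fas, and secrete interferon gamma, which acts on neighbouring cells through its own receptor. In the heart such cells are few under healthy conditions, and CD8 T cells are the lymphocytes most often linked to checkpoint inhibitor myocarditis.

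Promoters are shown for 4 of the 7 genes because their patterns below form pairs. Gzma and Gzmk are neighbours on chromosome 13, 70626 bases apart, and their levels took opposite places between natural killer (NK) and CD8 T cells. Gzmb and Prf1 were found together in single cells more often than their separate frequencies give, although Gzma with Gzmb was the highest such pair. Each line runs from 250 bases before to 50 bases after the RefSeq transcript start (GRCm38.p6), 5′ to 3′ on the strand of the gene. Capitals mark the Runx core TGTGGT and the Ets core AGGAAG, on either strand.
Gzma, chr13:113100932-113101231, minus strand: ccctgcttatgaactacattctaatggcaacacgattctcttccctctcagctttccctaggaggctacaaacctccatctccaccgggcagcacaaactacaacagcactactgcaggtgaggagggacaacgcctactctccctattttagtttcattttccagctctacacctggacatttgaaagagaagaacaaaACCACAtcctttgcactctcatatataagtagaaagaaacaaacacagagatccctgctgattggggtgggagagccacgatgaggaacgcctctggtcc
Gzmk, chr13:113180916-113181215, minus strand: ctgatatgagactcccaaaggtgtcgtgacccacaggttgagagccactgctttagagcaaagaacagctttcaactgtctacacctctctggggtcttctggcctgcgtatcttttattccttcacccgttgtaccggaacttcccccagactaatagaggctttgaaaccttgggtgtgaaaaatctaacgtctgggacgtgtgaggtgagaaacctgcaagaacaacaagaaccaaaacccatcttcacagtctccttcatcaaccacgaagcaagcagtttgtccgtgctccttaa
Gzmb, chr14:56262285-56262584, minus strand: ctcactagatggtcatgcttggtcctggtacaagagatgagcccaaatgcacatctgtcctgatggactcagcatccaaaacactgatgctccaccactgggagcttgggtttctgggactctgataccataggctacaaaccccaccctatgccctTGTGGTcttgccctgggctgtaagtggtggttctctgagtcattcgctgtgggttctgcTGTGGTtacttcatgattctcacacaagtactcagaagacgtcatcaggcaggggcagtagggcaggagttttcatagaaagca
Prf1, chr10:61297586-61297885, plus strand: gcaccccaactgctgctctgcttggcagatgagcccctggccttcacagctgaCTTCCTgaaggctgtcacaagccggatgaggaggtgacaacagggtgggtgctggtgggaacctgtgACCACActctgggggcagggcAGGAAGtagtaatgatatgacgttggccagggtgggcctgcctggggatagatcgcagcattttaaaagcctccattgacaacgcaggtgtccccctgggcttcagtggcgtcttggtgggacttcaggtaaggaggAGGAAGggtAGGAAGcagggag
The Runx core was present in the promoters of Gzma, Gzmb, Prf1 and Nkg7, which is 4 of 7, and in 16.8% of 32851 RefSeq promoters of the same length. The Ets core was present in those of Prf1, Nkg7 and Fasl, 3 of 7 against 35.4% of all promoters. The T-box half-site GGTGTG was present in those of Gzmk, Nkg7 and Fasl, 3 of 7 against 19.0%, and the AP-1 motif TGANTCA, read on both strands, in that of Gzmb alone, 1 of 7 against 7.81%. The Gzmk line has no capitals because neither core is in it. These matches describe letters, not measured binding.

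After filtering, 36891 of 47319 barcodes were kept, between 5480 and 9464 per library, with a median of 3331 to 4525 unique molecular identifiers (UMIs, each standing for 1 captured RNA molecule) per cell. Lymphocytes were gated by UMIs of marker genes, without any of the 7 genes. The CD8 T gate held 396 and 44 cells in control replicates 1 and 2, and 74, 1885 and 473 cells in disease replicates 3, 4 and 5. The CD4 T gate held 39 and 20 against 23, 151 and 34 cells, and the NK gate 24 and 19 against 10, 48 and 17 cells. CD8 T cells made up 4.48 and 0.803% of kept cells in the controls and 1.31, 19.9 and 6.35% in disease, so the share was highest in disease replicate 4, and disease replicate 3 lay between the controls. For CD4 T cells the shares were 0.441 and 0.365% against 0.406, 1.60 and 0.457%, and for NK cells 0.271 and 0.347% against 0.177, 0.507 and 0.228%. Two-sided exact permutation tests gave p = 0.5, 0.6 and 1.0 for the 3 gates (adjusted p 0.9, 0.9 and 1.0), where the smallest p that 2 against 3 libraries allow is 0.1.

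The defining genes were read in each gate. Cd3d, Cd3e and Cd3g were at 0 in every NK sum, as the gate requires, and Cd8a and Cd8b1, which the NK gate did not use, had 0 UMIs in 3 of 5 NK sums, 7 in disease replicate 4 and 1 in disease replicate 5. Ncr1, Klrb1c and Klre1 had 0 UMIs in all 5 CD4 T sums. In the CD8 T sums they reached 91.5 and 18.0 CPM (the usual depth-scaled unit, UMIs of a gene relative to all UMIs of the summed cells) in the controls and 40.7, 154 and 112 CPM in disease. At least 1 UMI of these NK markers was found in 19.7 and 2.27% of CD8 T cells of the controls and in 8.11, 29.1 and 24.5% in disease. The 20 markers of endothelial cells, fibroblasts, macrophages, B cells and neutrophils together made up 216 to 437 CPM of the CD8 T sums, 191 to 477 CPM of the CD4 T sums and 384 to 511 CPM of the NK sums. At least 1 UMI of them was found in 80.3% of CD8 T, 75.3% of CD4 T and 81.4% of NK cells. The part of the NK and other-lineage markers in the results was not tested. As for the targeted genes, Pdcd1 UMIs were counted in every library although all are labelled Pdcd1-/-, at 640 and 108 CPM in CD8 T cells of the controls against 346, 1133 and 861 CPM in disease. Ctla4 was at 358 and 40.5 CPM in CD8 T cells of the controls against 174, 619 and 548 CPM in disease. Which exons were removed is not given in the sources used here, so whether these UMIs come from a transcript of the altered alleles was not tested, and the values do not check the labels. A total of 728 of 36156 barcode sequences occurred in more than 1 library (2.01%).

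Control replicate 2 stood apart in its CD8 T gate, which held the fewest cells (44) and, as the values below show, the lowest level of each of the 7 genes. Its T cell markers were lower too: Cd8a and Cd8b1 together were at 1040 CPM there and at 1772 to 3039 CPM in the other 4 libraries, and Cd3d, Cd3e and Cd3g at 2225 against 3831 to 6079 CPM. The part of this in the results was not tested.

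Nkg7, a granule membrane protein needed for efficient degranulation, was at 4215 CPM in CD8 T cells of control replicate 1 and 901 CPM in those of control replicate 2. The 3 disease libraries, in order of replicate, were at 2753, 5239 and 4637 CPM. All of the other 4 libraries lay above control replicate 2, and control replicate 1 lay inside the disease range.

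The 3 granzymes differed in how they varied between libraries of the CD8 T gate. Gzmb, the main caspase-activating granzyme, was at 450 and 67.6 CPM in the 2 controls, then at 273, 833 and 655 CPM in disease. Gzma, a protease of tryptase type, was at 731 and 9.01 CPM against 238, 635 and 377 CPM. Its highest library was control replicate 1, and control replicate 2 held only 2 Gzma UMIs in 44 cells. Gzmk, a tryptase typical of memory-like and exhausted-like CD8 T cells, was at 285 and 45.0 CPM against 270, 289 and 274 CPM, so that 4 of 5 libraries differed by less than 20 CPM.

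Prf1, which encodes perforin, was at 180 and 13.5 CPM in CD8 T cells of the controls and at 63.9, 550 and 305 CPM in disease. Disease replicates 4 and 5 lay above both controls, and disease replicate 3 lay between them. Ifng, the gene of interferon gamma, was at 322 and 45.0 CPM against 238, 406 and 332 CPM. Fasl, the gene of Fas ligand, was at 151 and 31.5 CPM against 105, 234 and 139 CPM. For Ifng and Fasl, as for Gzmk and Nkg7, control replicate 1 lay within the disease values, and the groups overlapped for all 7 genes.

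**Figure D1:**
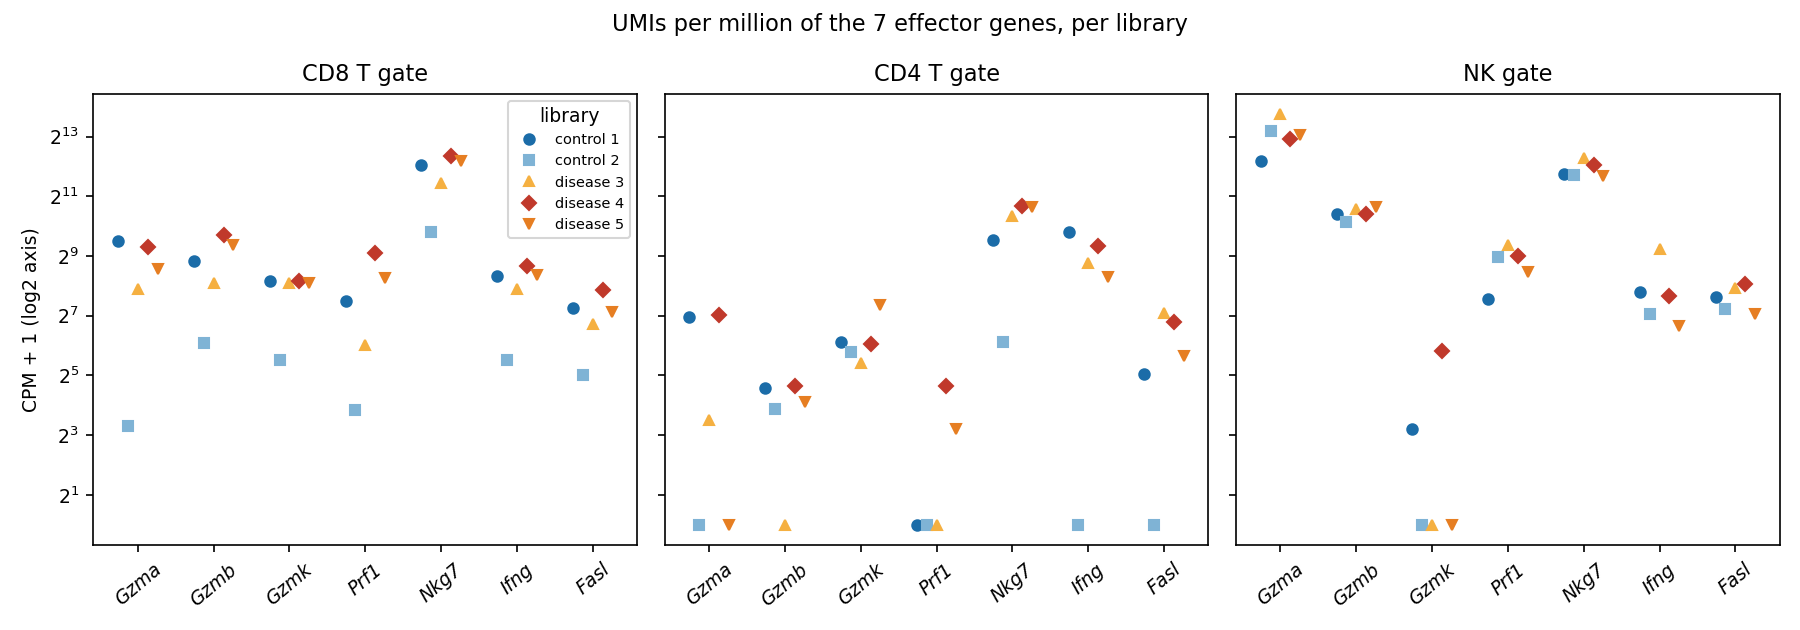
Level of each of the 7 genes per library in the CD8 T, CD4 T and NK gates (y axis, CPM plus 1 on a log2 axis; each point is 1 library). In CD8 T cells control replicate 2 is the lowest point for all 7 genes, and in NK cells Gzma lies between 4669 and 13799 CPM while Gzmk is at 0 in 3 of 5 libraries.

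None of the 7 genes was called between disease and control in CD8 T cells. The log2 fold change of disease over control was 0.13 for Gzma (SE 1.03), 1.12 for Gzmb (SE 0.70), 0.69 for Gzmk (SE 0.59) and 1.51 for Prf1 (SE 0.93). It was 0.72 for Nkg7 (SE 0.59), 0.76 for Ifng (SE 0.63) and 0.70 for Fasl (SE 0.56). All 7 values were above 0, with a median of 0.72, where the median of all 8971 genes tested was 0.04. Adjusted p-values of edgeR's quasi-likelihood test ran from 0.553 for Prf1 to 0.981 for Gzma, and 4.55% of all genes were called in this comparison, 405 of them lower and 3 higher in disease.

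The size of these differences depended on which control library entered. Without control replicate 1 the log2 fold changes ran from 2.18 for Nkg7 to 5.50 for Gzma, and none was called. Without control replicate 2 most of the differences were near 0: Gzmk was at 0.0024, Nkg7 at 0.018, Ifng at 0.045, Fasl at 0.12, Gzmb at 0.40 and Prf1 at 0.79, and Gzma was at -0.79. The size of the median over the 7 genes therefore rested on control replicate 2. Each of these 2 fits has 1 control library, which is assumed to vary like the disease libraries. Without disease replicate 4 Gzma was at -0.26, Fasl at 0.34 and Prf1 at 0.81. Without the filter on low counts, Prf1 alone was called (log2 fold change 1.61, adjusted p by edgeR 0.00427), as were 863 of 16257 genes in all.

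Cycling CD8 T cells, those in which the mitosis genes Mki67, Top2a, Birc5, Cdk1 and Ccnb2 together gave at least 2 UMIs, were compared with the rest in the 3 libraries that had at least 20 of them (32, 151 and 42 cells). Gzma and Gzmk were higher in cycling cells, and Nkg7 and Ifng lower. Gzma was at 1183 CPM in cycling against 656 CPM in other cells of control replicate 1 and at 1353 against 512 CPM in disease replicate 4, but at 296 against 395 CPM in disease replicate 5 (log2 fold change 0.68, SE 0.17, adjusted p by edgeR 0.0053). Gzmk was at 387 against 268 CPM, 426 against 265 CPM and 327 against 262 CPM in the same libraries, higher in 3 of 3 (log2 fold change 0.47, SE 0.10, adjusted p by edgeR 0.00094).

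The differences of the other genes between cycling and other cells were smaller. Ifng had a log2 fold change of -0.41 (SE 0.12, adjusted p by edgeR 0.018) and Nkg7 of -0.24 (SE 0.05, adjusted p by edgeR 0.0013), while Gzmb (0.25), Prf1 (-0.11) and Fasl (-0.29) did not pass. Many genes separate cycling from resting cells, and 11.8% of the 7960 genes tested were called higher and 8.39% lower. The calls depended on single libraries. Without disease replicate 4 they were Gzmb (0.59) and Ifng (-0.56), while Gzma was at 0.25 and Gzmk at 0.38. Without disease replicate 5 they were Gzma (1.11) and Gzmk (0.59), while Ifng was at -0.13. Without control replicate 1 all genes but Gzmb were called, among them Prf1 (-0.46, adjusted p by edgeR 0.000544) and Fasl (-0.38, adjusted p by edgeR 0.0245), although Prf1 was at 0.27 and 0.09 in the former fits. With DESeq2 the calls were Gzmk and Nkg7, and Gzma was at 0.54 (adjusted p by DESeq2 0.73).

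NK cells, innate lymphocytes that carry cytotoxic granules without prior activation, had the highest levels of Gzma. Their sums were at 4669 and 9387 CPM in the 2 controls, then at 13799, 7748 and 8508 CPM in disease. The lowest NK library was thus above the highest CD8 T library, which was at 731 CPM. Gzmb was at 1353 and 1136 CPM against 1540, 1370 and 1592 CPM in NK cells, again above every CD8 T library.

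Gzmk had the opposite pattern. NK sums held 1 Gzmk UMI in control replicate 1 (8.25 CPM), 10 in disease replicate 4 (56.1 CPM) and 0 in the other 3, where 3 UMIs would correspond to between 49.8 and 90.6 CPM. The neighbouring genes Gzma and Gzmk thus ranked in opposite directions between the 2 gates in all 5 libraries except for the depth limit of Gzmk in control replicate 2, whose CD8 T level of 45.0 CPM lay below the 50.1 CPM that 3 UMIs would make in its NK cells.

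For the remaining genes, Prf1 was at 190 and 501 CPM in NK cells of the controls and at 664, 505 and 348 CPM in disease. Nkg7 was at 3407 and 3324 CPM against 4922, 4273 and 3284 CPM. Ifng was at 223 and 134 CPM against 604, 202 and 99.5 CPM, and Fasl at 198 and 150 CPM against 242, 264 and 133 CPM. These 4 ranges overlapped those of the CD8 T gate.

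Only control replicate 1 and disease replicate 4 had at least 20 cells in the NK gate, so the fit planned as the main one compared NK with CD8 T cells in 2 libraries, with 1 residual degree of freedom. It called Gzma and Gzmb higher and Gzmk, Nkg7 and Ifng lower in NK cells (log2 fold change 3.1, 1.06, -3.06, -0.36 and -0.86), where 3.54% of 7256 genes were called higher and 5.25% lower. The alternative with at least 10 cells used all 5 libraries, each as a block, and called 6.56% of 2318 genes higher and 5.91% lower. In it Gzma had a log2 fold change of 4.61 (SE 0.58, adjusted p by edgeR 2.2e-05), Gzmb of 1.70 (SE 0.29, adjusted p by edgeR 0.00049) and Gzmk of -3.52 (SE 0.42, adjusted p by edgeR 1.3e-05). Gzmk passed the filter on low counts through its CD8 T counts, as most NK sums held 0 UMIs of it. The size of its value is therefore uncertain. Prf1 (0.93, adjusted p by edgeR 0.20), Nkg7 (0.15, 0.82), Ifng (-0.41, 0.46) and Fasl (0.42, 0.29) did not pass, so the calls of Nkg7 and Ifng rested on the 2 libraries. Without the limit on UMIs of other lineages 3 libraries entered and only Gzmk was called, while the log2 fold changes of Gzma (4.10, adjusted p by edgeR 0.0982) and Gzmb (1.55, 0.173) were no smaller than in the 2-library fit.

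No difference between disease and control was called in NK cells. The planned fit could not be made, since it would have had 1 library in each group. With at least 10 cells the log2 fold change of disease over control was 0.38 for Gzma (SE 0.37), 0.13 for Gzmb (SE 0.25), 0.46 for Prf1 (SE 0.48), 0.18 for Nkg7 (SE 0.24), 0.37 for Ifng (SE 0.66) and 0.16 for Fasl (SE 0.41). The adjusted p-values by edgeR of these 6 genes ran from 0.783 to 0.920, Gzmk did not pass the filter on low counts, and 7.33% of 968 genes were called, all of them lower in disease.

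CD4 T cells carried Ifng and Nkg7 and few UMIs of the granule proteases. Ifng was at 891 and 0 CPM in the 2 controls, then at 431, 647 and 312 CPM in disease. The value of 0 stands for 20 cells with 73389 UMIs in all, in which 3 UMIs would make 40.9 CPM. Nkg7 was at 747 and 68.1 CPM against 1294, 1646 and 1587 CPM, so all 3 disease libraries lay above both controls. Fasl was at 32.3 and 0 CPM against 137, 109 and 49.3 CPM, with the same separation. The share of all genes that separate the groups in this way was not counted, so whether it is unusual was not tested.

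The granule genes were sparse in the CD4 T gate. Gzmb had between 0 and 13 UMIs per library (at most 24.1 CPM), and Prf1 had 0 UMIs in 3 libraries, 13 in disease replicate 4 and 1 in disease replicate 5. Gzmk was at 69.2 and 54.5 CPM in the 2 controls, then at 42.1, 64.9 and 164 CPM in disease. Gzma was at 125 and 0 CPM against 10.5, 128 and 0 CPM.

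Between disease and control in CD4 T cells, Nkg7 had a log2 fold change of 1.74 (SE 0.68, adjusted p by edgeR 0.241) and Fasl of 2.07 (SE 0.81, adjusted p by edgeR 0.243). Ifng (-0.06) and Gzma (-0.37) had adjusted p-values of 0.986 and 0.928 by edgeR, and Gzmb, Gzmk and Prf1 did not pass the filter on low counts. Of 1848 genes 4.6% were called. The size for Nkg7 depended on the control libraries. It was 1.08 without control replicate 2 (adjusted p by edgeR 0.111) and 4.32 without control replicate 1 (adjusted p by edgeR 0.0131), where the only control left had 5 Nkg7 UMIs in 20 cells and its spread was taken from the disease libraries. The fit of all 5 libraries without the filter on low counts gave 2.00 (adjusted p by edgeR 2.93e-05), where 219 of 12517 genes were called. Fasl was at 1.67 without control replicate 2 (adjusted p by edgeR 0.303), and without control replicate 1 its only control library had 0 UMIs.

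Compared with CD4 T cells of the same library, CD8 T cells had higher levels of 5 genes. The log2 fold change of CD8 T over CD4 T cells was 4.93 for Gzmb (SE 0.30, adjusted p by edgeR 5.9e-09), 2.93 for Gzma (SE 0.33, adjusted p by edgeR 1.5e-05) and 1.73 for Gzmk (SE 0.28, adjusted p by edgeR 0.00065). It was 1.92 for Nkg7 (SE 0.22, adjusted p by edgeR 1.5e-05) and 1.19 for Fasl (SE 0.29, adjusted p by edgeR 0.017). Gzmb and Gzmk did not pass the filter on low counts in CD4 T cells alone. They entered this fit through their CD8 T counts, so the sizes of their values are uncertain. Of the 6 genes tested, Ifng alone was below 0 (-0.60, SE 0.25) and did not pass (adjusted p by edgeR 0.20). Under stricter gates, in 4 libraries, it was called lower in CD8 T cells (-0.74, adjusted p by edgeR 0.0356). In the fit of 5 libraries 3.42% of 3073 genes were called higher and 2.86% lower, and Prf1 did not pass the filter on low counts. The call of Fasl was lost without control replicate 1, disease replicate 4 or disease replicate 5 (adjusted p by edgeR 0.102, 0.123 and 0.102), with log2 fold changes of 0.90, 1.24 and 1.11.

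NK cells stood further from CD4 T cells. With at least 10 cells in all 5 libraries, the log2 fold change of NK over CD4 T cells was 6.81 for Gzma, 6.12 for Gzmb, 5.10 for Prf1, 1.99 for Nkg7 and 1.60 for Fasl, all called by edgeR (adjusted p 0.0030 or lower), where 10.2% of 1319 genes were called higher and 8.04% lower. The value of Prf1, which had 0 UMIs in CD4 T cells of 3 libraries, ran from 2.51 with doublet calls kept to 5.11 with DESeq2 over the alternatives, and was called in each. Gzmb and Prf1 did not pass the filter on low counts in CD4 T cells alone. They entered these fits through their NK counts, so the sizes of their values are uncertain. Ifng was at -1.05 and did not pass (adjusted p by edgeR 0.10). In the 2 libraries with at least 20 cells the same 5 genes were called higher, and Ifng was called lower at -1.87 (adjusted p by edgeR 0.00011), where 5.43% of 2728 genes were called higher and 6.05% lower. Gzmk (-0.92) did not pass there and was filtered out in the other fit.

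**Figure D2:**
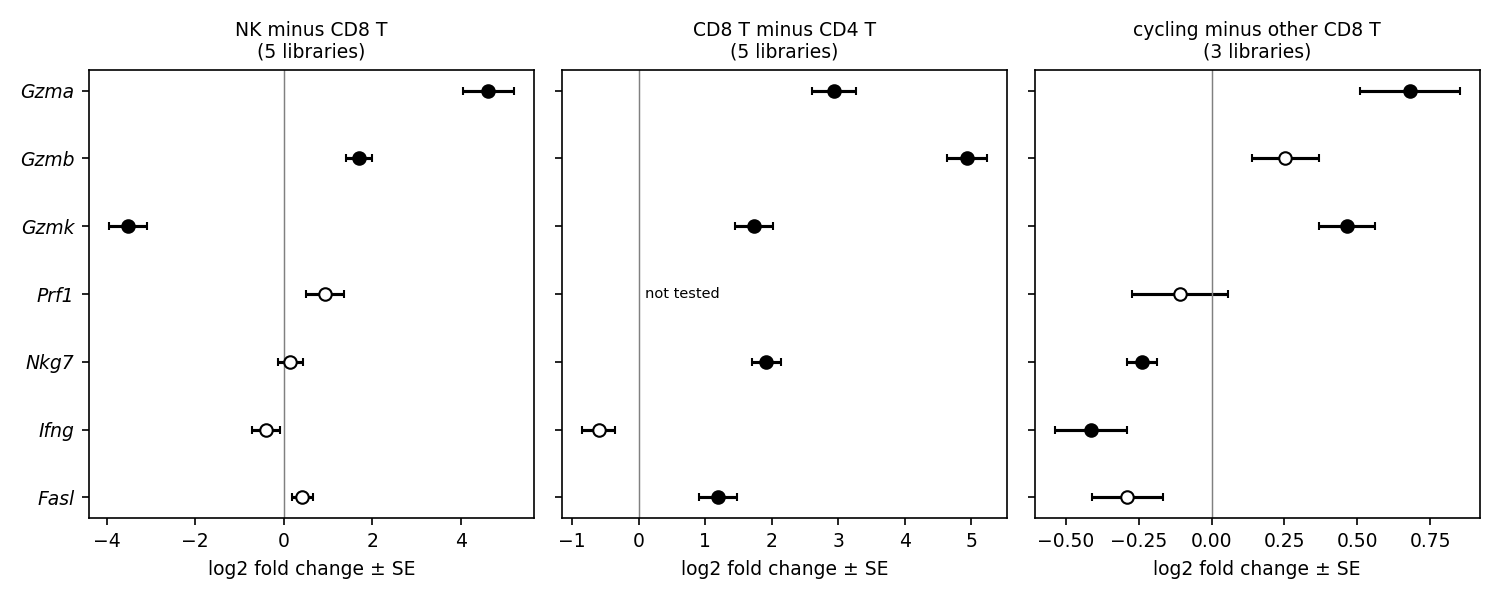
Log2 fold change of each of the 7 genes in 3 comparisons within libraries (x axis, point with SE bar; filled, adjusted p by edgeR under 0.05; open, not called). Gzma and Gzmk lie on opposite sides of 0 between NK and CD8 T cells (4.61 and -3.52). Most NK sums held 0 Gzmk UMIs, so the size for Gzmk is uncertain. Ifng alone lies below 0 between CD8 T and CD4 T cells (-0.60).

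Arranged by mean level over the 5 libraries, the 3 gates ranked NK, CD8 T and CD4 T for Gzma (8822 ± 3301, 398 ± 293 and 52.6 ± 67.4 CPM, SD, n = 5) and for Gzmb (1398 ± 180, 456 ± 303 and 15.4 ± 9.69 CPM). Both steps were called for these 2 genes, though Gzmb entered the fit of CD8 T and CD4 T cells through its CD8 T counts. For Prf1 (442 ± 180, 222 ± 215 and 6.46 ± 10.5 CPM), Nkg7 (3842 ± 728, 3549 ± 1741 and 1068 ± 663 CPM) and Fasl (197 ± 56.5, 132 ± 73.6 and 65.5 ± 56.2 CPM) no difference between NK and CD8 T levels was called in the 5-library fit, although Nkg7 was called in the 2-library fit. Gzmk ranked CD8 T, CD4 T and NK (232 ± 105, 79.0 ± 48.9 and 12.9 ± 24.4 CPM). Ifng had no common order: its means were 456 ± 337 CPM in CD4 T, 269 ± 138 CPM in CD8 T and 252 ± 203 CPM in NK cells, but single libraries followed this order only in control replicate 1 and disease replicate 4, with no neighbouring pair called in the 5-library fits, and the CD4 T and NK levels of Gzmk were not called either where they could be tested.

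Whether the disease difference was unequal between gates was tested with a group by gate term, in which libraries were blocks. For CD8 T against CD4 T cells 0 of 7 genes were called, and 0.114% of 4374 genes were. Nkg7 came nearest, with a term of -1.46 (SE 0.32, adjusted p by edgeR 0.189), that is, a smaller disease difference in CD8 T than in CD4 T cells. For NK against CD8 T cells 0 of 7 genes were called (adjusted p by edgeR 1.0 for each), where 0.084% of 3570 genes were. For NK against CD4 T cells 0 of the 6 genes tested were called, where 0.231% of 2167 genes were, and Nkg7 had a term of -1.83 (SE 0.49, adjusted p by edgeR 0.114). At an unadjusted p under 0.05 the 3 terms called 194, 110 and 103 genes in all.

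Summed over all kept cells, where more cytotoxic cells and more RNA per cell cannot be told apart, the 7 genes ranged widely between libraries. Nkg7 was at 283 and 25.8 CPM in the 2 controls, then at 62.0, 1193 and 404 CPM in disease, and Prf1 at 12.2 and 2.44 CPM against 2.42, 121 and 26.5 CPM. Gzma was at 60.4 and 32.4 CPM against 28.6, 177 and 51.6 CPM. Log2 fold changes ran from 0.99 for Gzma to 2.87 for Prf1, none was called (adjusted p by edgeR 0.484 to 0.606), and 6.49% of 16115 genes were. Without disease replicate 4 they ran from -0.27 for Gzma to 0.89 for Prf1, without control replicate 2 from 0.58 for Gzma to 2.13 for Prf1, and without control replicate 1 from 1.56 for Gzma to 5.31 for Ifng. Disease replicate 4, with 1885 CD8 T cells, was the highest library for all 7 genes.

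The CD8 T, CD4 T and NK gates held most UMIs of the 7 genes when libraries were pooled, a sum to which disease replicate 4 gave the most. CD8 T cells held 82.9% of the Gzmk UMIs of all kept cells, 80.8% of Prf1, 78.0% of Nkg7, 75.3% of Gzmb, 72.9% of Fasl and 67.5% of Ifng. For Gzma the share was 55.7%, and the 118 NK cells held another 24.3%. The libraries differed in these shares. In control replicate 2 the CD8 T cells held 0.269% of Gzma, 5.36% of Prf1, 11.3% of Gzmb, 20% of Fasl and 33.8% of Nkg7 UMIs, and the NK cells held 75.5, 53.6, 51.1, 25.7 and 33.6% of the same genes. In disease replicate 3 the CD8 T and NK cells held 11.2 and 62.3% of Gzma and 35.5% each of Prf1. In control replicate 1 and disease replicates 4 and 5 the CD8 T cells held the largest share of all 7 genes. Outside all T and NK gates, T cells with neither or both of Cd4 and Cd8 included, lay 10.1 to 16.0% of the pooled UMIs of each gene, and in single libraries from 6.21% (Ifng in disease replicate 3) to 33.9% (Prf1 in control replicate 2).

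As a background, endothelial cells were at most at 9.06 CPM of Gzma, 6.80 CPM of Prf1 and 63.4 CPM of Nkg7, each in disease replicate 4. Their gate allowed no UMI of Cd3d, Cd3e, Cd3g, Ncr1, Klrb1c or Klre1. It thus left out cells that carried these lymphocyte transcripts, and the background may be low for this reason, which was not tested. Other gates made in the same way reached more, with B cells at up to 15.9 CPM of Gzma and neutrophils at up to 126 CPM of Nkg7. After every cell was thinned to 1000 UMIs, 0.0440 to 7.37% of endothelial cells and up to 14.3% of neutrophils (2 of 14 cells in control replicate 1) carried a UMI of Nkg7. In CD8 T cells 91.9% and 48.8% of the control cells did (95% Wilson intervals 88.7 to 94.2 and 34.6 to 63.2), and 63.5% (52.1 to 73.6), 92.4% (91.1 to 93.5) and 91.7% (88.9 to 93.9) in disease. Median depth before thinning was 4122 UMIs in CD8 T cells and 3034.5 UMIs in endothelial cells. Unthinned, 98.2 and 77.3% of control CD8 T cells were Nkg7-positive, as were 87.8, 96.2 and 97.5% of disease cells. The unthinned background of disease replicate 4 was 16.4% of endothelial cells and 18.8% of macrophages.

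The other genes were found in a minority of CD8 T cells at this depth. Gzmb was found in 29.3 and 4.65% of control and 18.9, 38.4 and 29.0% of disease CD8 T cells, and Prf1 in 10.7 and 0% against 4.05, 25.3 and 20.6%. For Prf1 the 0 of 43 cells allows a share of up to 6.98% of cells with a UMI at this thinned depth, and unthinned 6.82% had one. In NK cells Gzma was found in 54.2 and 84.2% against 90.0, 66.0 and 62.5% of cells. After thinning Gzmk was found in 0 of 47 NK cells of disease replicate 4 and in 0 of the cells of the other 4 NK sums. Unthinned, 8.33% of NK cells in disease replicate 4 and 4.17% in control replicate 1 had a Gzmk UMI, so the thinned zeros set no limit on the share of NK cells with Gzmk. Of the 21 pairs of gene and gate, none had an adjusted p under 0.969 between disease and control by the exact permutation test, which cannot give a raw p below 0.1.

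**Figure D3:**
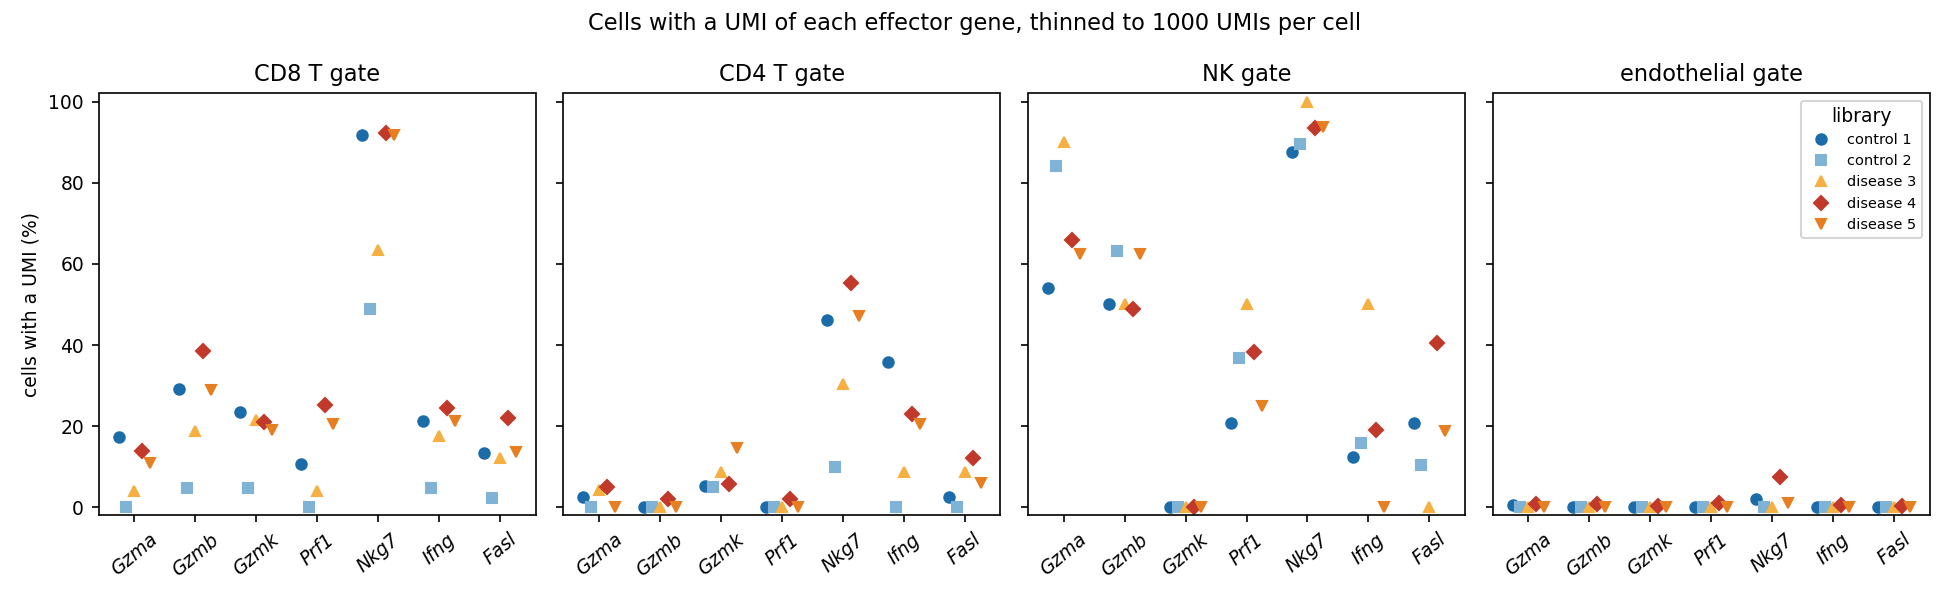
Share of cells with at least 1 UMI of each of the 7 genes after thinning to 1000 UMIs per cell, in the CD8 T, CD4 T, NK and endothelial gates (y axis, percent; each point is 1 library). Endothelial cells, as background and gated to hold no UMI of the Cd3 and NK marker genes, reach 7.37% for Nkg7 and 1.05% for Prf1. Gzmk is at 0 in all 5 NK libraries.

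Within the CD8 T gate the genes differed in how their UMIs were spread over cells. In the 3 libraries with more than 100 CD8 T cells (control replicate 1, then disease replicates 4 and 5), Gzma was missing from 82.7, 86.1 and 89.2% of thinned cells, where a Poisson spread of its mean over all cells would leave it out of 53.2, 62.5 and 69.8%. Prf1 was missing from 89.3, 74.7 and 79.4% of cells, against Poisson values of 85.8, 61.3 and 68.9%. Gzmk was missing from 76.6, 78.9 and 80.9% of cells, nearer to the Poisson values of 73.5, 73.8 and 76.6%. The highest count in 1 thinned cell was 19, 22 and 17 UMIs for Gzma and 3, 6 and 4 UMIs for Gzmk.

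Co-detection was measured as the number of cells with UMIs of both genes over the number that their separate frequencies give. It is described without a test, since cells of a library are not replicates, and each value is a mean over the libraries in which at least 2 cells were expected. Over the 21 pairs in CD8 T cells the median ratio was 1.12, and 16 pairs lay above 1, of which 9 did so in every library with a value. Control replicate 2 gave no value for any pair. The 9 include Nkg7 with Gzma, Gzmb, Gzmk, Prf1 and Ifng. Nkg7 was found in 91.9, 92.4 and 91.7% of thinned CD8 T cells of control replicate 1 and disease replicates 4 and 5. Ratios of its pairs are therefore held near 1 there, and the median joins pairs with unlike upper limits.

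Gzma and Gzmb formed the pair with the highest ratio, 1.71 (range 1.47 to 1.96 over 3 libraries). Of Gzma-positive CD8 T cells, 50.0% in control replicate 1, 56.6% in disease replicate 4 and 56.9% in disease replicate 5 also carried Gzmb, against 24.9, 35.5 and 25.7% of Gzma-negative cells. Gzmb and Prf1 had a ratio of 1.35 (1.25 to 1.42) and Gzma and Prf1 of 1.31 (1.08 to 1.51). Gzma and Gzmk, whose levels ranked oppositely between NK and CD8 T cells, had a ratio of 1.18 (1.13 to 1.22) within CD8 T cells. Gzmk and Fasl were below 1 in the 3 libraries with at least 2 cells expected, at 0.89 (0.81 to 0.95), while disease replicate 3, where fewer than 2 were expected, had 4 cells with both against 1.95. Gzmb and Ifng lay on both sides of 1, at 0.57 in control replicate 1, 0.81 in disease replicate 3 and 1.02 and 1.07 in disease replicates 4 and 5.

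In NK cells, where both granzymes were common, Gzma and Gzmb had a ratio of 1.29 (1.11 to 1.44 over 5 libraries).

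**Figure D4:**
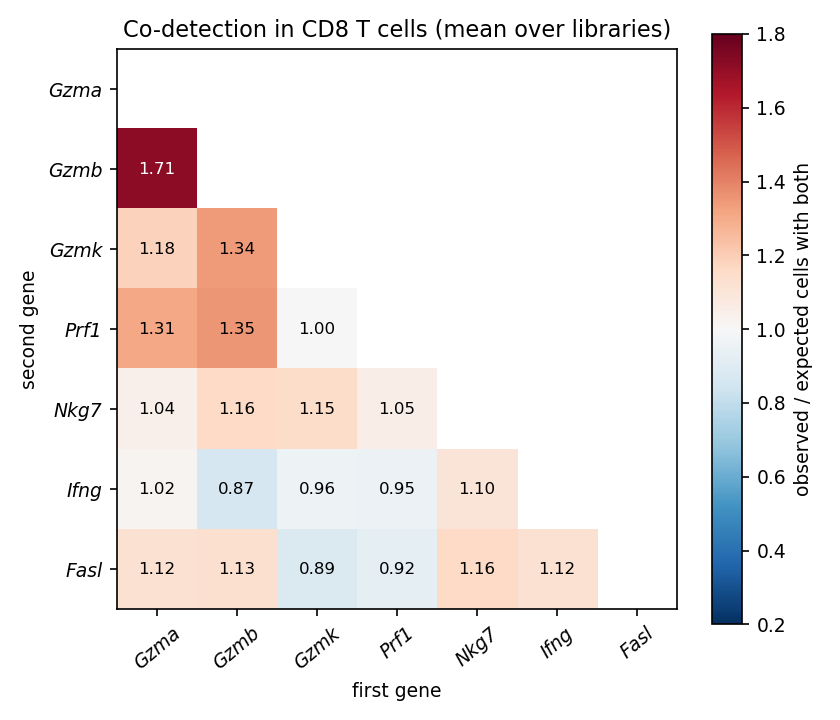
Observed over expected number of CD8 T cells with UMIs of both genes of a pair, after thinning to 1000 UMIs, as the mean over libraries (colour and printed value; 1 stands for independent detection). The highest value is that of Gzma with Gzmb (1.71) and the lowest that of Gzmb with Ifng (0.87).

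Cells with at least 5 of the 7 genes were few. There were 8 of 393 and 0 of 43 such CD8 T cells in the controls and 1 of 74, 79 of 1838 and 10 of 472 in disease. In CD8 T cells 2.04 and 0% of control cells and 1.35, 4.30 and 2.12% of disease cells carried at least 5 of the 7 genes after thinning, where independent detection gives 1.24, 1.1e-04, 0.160, 2.88 and 1.20%. Cells with none of the 7 genes made up 4.33 and 48.8% of the controls and 32.4, 4.84 and 5.08% of disease, against 2.22, 43.3, 15.5, 1.41 and 2.29% under independence. The excess at 5 or more genes thus rested on few cells outside disease replicate 4.

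Other genes of the pathway were read from a list of 29 that covers granzymes, granule processing, granule transport, granzyme inhibitors, effector ligands and receptors. Between disease and control 0 of 22 tested genes were called in CD8 T cells (18 above 0, median log2 fold change 0.40 against 0.04 over all genes), 0 of 10 in CD4 T cells and 0 of 12 in NK cells, where 4.55, 4.6 and 7.33% of all genes were. Over all kept cells 1 of 24 was called, a smaller share than the 6.49% of all genes. It was Ifngr2, a chain of the interferon gamma receptor, at 56.4 and 47.5 CPM in the control libraries and 12.9, 13.8 and 13.3 CPM in disease (log2 fold change -1.92, SE 0.18, adjusted p by edgeR 0.0056). In these fits log2 fold changes fell with the GC content of the first 300 bases of the transcript, with a Spearman's rho of -0.44 across 7153 well-expressed genes over all cells and -0.41 across 5195 in CD8 T cells, which are not independent replicates, and the part of this in the value of Ifngr2 was not tested. The 7 effector genes had 46.2 to 56.3% GC in that stretch.

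Both listed granzyme inhibitors were higher in NK than in CD8 T cells. Serpinb9, which blocks granzyme B inside the cell that makes it, was at 825 and 986 CPM in NK cells of the controls and 1057, 1645 and 1111 CPM in disease, and between 76.6 and 138 CPM in CD8 T cells. Its log2 fold change of NK over CD8 T cells was 3.14 with at least 10 cells (SE 0.19, adjusted p by edgeR 2.3e-09). Serpinb6b was at 551 to 845 CPM in NK and 58.6 to 91.2 CPM in CD8 T cells (log2 fold change 3.03). In the fit of all 5 libraries 6 of 12 tested listed genes were higher in NK cells, the others being Ctsw, Xcl1, Ccl4 and Ifngr1, and Lyst was lower, where 6.56% of all genes were called higher and 5.91% lower. The planned fit of 2 libraries tested 20 listed genes and called 7 higher and 5 lower, where 3.54% of all genes were called higher and 5.25% lower. The higher ones were the same 6 and Gzmc, and the lower ones Lyst, Cst7, Tnf, Ccl3 and Ccl5, with a median log2 fold change of -0.08 over the 20 genes.

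Gzmc was at 561 and 134 CPM in NK cells of the control libraries and 0, 747 and 82.9 CPM in disease, against at most 2.84 CPM in CD8 T cells. T cells with neither or both of Cd4 and Cd8 were not read for Gzmc. Gzmc belongs to a cluster of similar granzyme genes on chromosome 14, so the split of UMIs within that cluster is uncertain. CD8 T over CD4 T cells showed 5 of 14 tested listed genes higher and 0 lower, namely Ccl5, Ctsw, Cst7, Ctsc and Lyst, where 3.42% of all genes were called higher and 2.86% lower. Ccl5, a chemokine of activated T and NK cells, was at 22813 and 4328 CPM in CD8 T cells of the controls and at 15674, 29523 and 24219 CPM in disease, and at 1008 to 5821 CPM in CD4 T cells (log2 fold change 2.59, SE 0.16, adjusted p by edgeR 9.3e-09).

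Cycling CD8 T cells had 0 of 20 higher and 7 lower, among them Ccl5 (-0.92) and Serpinb9 (-0.63), where 11.8% of all genes were called higher and 8.39% lower. The group by gate terms tested 12 listed genes for NK against CD4 T cells, 17 for NK against CD8 T cells and 21 for CD8 T against CD4 T cells. Xcl1, a chemokine gene, was the only listed gene called. Its term was -3.04 between NK and CD4 T cells (SE 0.70, adjusted p by edgeR 0.047), where 0.231% of 2167 genes were called. Xcl1 was at 891 and 818 CPM in NK cells of the controls and 423, 1606 and 149 CPM in disease, and at 96.9 and 0 CPM against 305, 347 and 428 CPM in CD4 T cells. There all 3 disease libraries lay above both controls, and the control with 0 CPM held 20 cells. The share of all genes that separate the groups in this way was not counted.

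The genes whose levels ran most like each of the 7 were taken from 10809 genes over 34 sums of 8 gates and 5 libraries, by Pearson's r of log2(CPM + 1). The sums share libraries and gates, so r is a description only. Gzma, Gzmb and Prf1 had the NK receptor gene Klrc1 among their 3 nearest genes (r = 0.90, 0.93 and 0.95), and Gzmb ran closest to Cd160 (r = 0.94). Gzmk ran closest to Tox (r = 0.97), a transcription factor gene of persistently stimulated T cells, followed by Tigit and Bcl11b. Nkg7 ran closest to Tnfrsf9 (r = 0.97), and Ifng and Fasl both to Xcl1 (r = 0.96 and 0.97).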

How the data were processed

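The deposited UMI counts per gene and barcode carry software version 3.1.0 per the file headers. The submitters' processing notes name Cell Ranger 3, Seurat 3, mm10 and GRCh38, with no role for either build. Library totals were 55053988 and 24991704 UMIs (control replicates 1 and 2) and 31215662, 52378098 and 40156617 (disease replicates 3, 4 and 5). The labels do not say which mice or batches a library holds, so p-values measure spread between these libraries, and batch and genotype cannot be told apart.

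Barcodes were kept from 500 UMIs and 200 genes upward, up to a mitochondrial share of 10%. Scrublet (scanpy 1.11.5) doublets were removed at a score above 0.25 (1421, 3.71%), a limit chosen after seeing the data. CD8 T cells had at least 1 UMI of Cd3d, Cd3e or Cd3g, at least 2 over these with Trac, Trbc1 and Trbc2, and were positive for Cd8a or Cd8b1 but without a Cd4 UMI; CD4 T cells the reverse. NK cells had at least 2 UMIs over Ncr1, Klrb1c and Klre1 and none of the Cd3 genes. All 3 gates allowed at most 5 UMIs of 20 other-lineage markers. The gates of endothelial cells and other comparison cells required 0 UMIs of the Cd3 genes and of Ncr1, Klrb1c and Klre1. They also required at least 5 UMIs of the markers of a single lineage (3 for neutrophils) and at least 80% of all other-lineage marker UMIs in it.

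UMIs summed per library and gate (at least 20 cells) were tested across all genes with edgeR 4.0.16 (R 4.3.3, TMM, filterByExpr, quasi-likelihood F test, Benjamini-Hochberg, threshold 0.05), with the library as a block where gates or cell classes were compared. SE was taken as log2 fold change divided by root F. CPM use plain totals. Scripts were tested on simulated data. Shares were compared with two-sided exact permutation tests (scipy 1.17.1). Wilson intervals (95%) and floors of 3 UMIs cover counting error only. DESeq2 1.42.0, other filters, gates and left-out libraries were alternatives. The named genes are the 7 members, the 29 listed pathway genes, and the 3 genes of highest r per member. A planned division of the CD8 T cells is not reported here. Members and lists were chosen with earlier results of these data known.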

Additional observations from a re-analysis of the deposited data

How the results depend on the processing

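Results within libraries mostly kept direction and call, and the direction of Gzma between disease and control changed with single libraries. No paired analysis was possible because the control and disease groups share no replicate number. The fits of NK cells at 20 cells, with their group by gate terms, were not possible with 1 library a group, nor were comparisons of NK cells without control replicate 1 or disease replicate 4, so values at 10 cells stand in for them. Depth limits NK and CD4 T cells most, with 33119 to 178115 and 73389 to 539380 UMIs per sum.

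In CD8 T cells, disease over control, Gzma was -0.22 with a GC trend removed and from -0.79 to 5.50 with 1 library left out. In CD4 T cells Ifng was 0.046 with DESeq2, 0.20 without the filter on low counts and 0.42 without the other-lineage limit. With 1 library left out Ifng ran from -0.84 to 9.62 and Gzma from -0.88 to 6.54. Without control replicate 1 the only control sum, replicate 2, held 0 UMIs of both genes, so these upper ends are not readable as sizes. In NK cells Gzma was -0.043 without the other-lineage limit, Ifng -0.19 and Fasl -0.028 at 25% mitochondrial UMIs, and with the GC trend removed Gzmb was -0.11, Nkg7 -0.10, Ifng -0.0005 and Fasl -0.26. Over all kept cells Gzma ran from -0.27 to 1.56 with 1 library left out. None of these values was called. The GC trend was an alternative added after seeing the data.

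Between NK and CD8 T cells Fasl was -0.0265 without the filter on low counts, Prf1 was 0.040 under stricter gates, 0.67 without the other-lineage limit and 0.93 at 10 cells, and Nkg7 was 0.10 and 0.15 under the last 2. In cycling CD8 T cells Prf1 was 0.0017 with DESeq2, 0.082 without the other-lineage limit and from -0.46 to 0.27 with 1 library left out.

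The number of the 7 genes called went from 0 to 1 without the filter on low counts in CD8 T cells (863 of 16257 genes called in all), in CD4 T cells (219 of 12517) and in the CD8 T by CD4 T term (19 of 16471). In CD4 T cells it ran from 0 to 1 with 1 library left out, the 1 being without control replicate 1 (28 of 2102). At 25% mitochondrial UMIs 1 gene was called in the NK by CD4 T term (22 of 3589). Between NK and CD8 T cells 5 (638 of 7256 genes in all) became 3 with DESeq2 (190 of 7256), 1 without the other-lineage limit (140 of 3156) and 3 at 10 cells (289 of 2318); between NK and CD4 T cells 6 (313 of 2728) became 3 without that limit (127 of 2880). In cycling against other CD8 T cells 4 (1611 of 7960) became 2 with DESeq2 (709 of 7960) and ran from 2 to 6 with 1 library left out (880 to 1545 genes in all). Between CD8 T and CD4 T cells 5 (193 of 3073) became 7 of 7 under stricter gates (241 of 4205), 6 without the filter on low counts (456 of 16471), with doublet calls kept (209 of 3117) or without control replicate 2 (241 of 4259), and 4 without control replicate 1 (147 of 3005), disease replicate 4 (100 of 2567) or disease replicate 5 (134 of 3184). The difference between group means of each library's median detection over the 7 genes in CD8 T cells, 7.82 percentage points, ran from -0.543 to 16.2 with 1 library left out. The causes were not tested.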
